A study of Mus musculus with 6 samples.

Results

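Hyaluronan is a long sugar chain that cells spin out into the space around them, where proteoglycans and link proteins hang on it and swell the matrix with water. Lecticans such as versican and aggrecan bind the chain at their globular end, link proteins lock that bond, and CD44 tethers the chain to the cell surface. The notochord and the later nucleus pulposus of the disc are known for a matrix rich in such molecules. Measured here on 6 mouse arrays are 9 genes of that matrix: the hyaluronan synthase Has2, the receptor Cd44, the lecticans Vcan and Acan, the link protein Hapln1, the cartilage oligomeric matrix protein Comp, and the small leucine-rich proteoglycans Bgn, Dcn and Lum. The 9 genes were chosen with earlier results of these data known. Their probe sets were taken by symbol, as those that the platform annotation gives exactly 1 gene symbol. All 9 were found among 18193 genes so named. The 9 genes had 26 probe sets of 45101 on the array, of which 20 passed the filter on low values.

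The arrays compared cells sorted by a GFP reporter of Noto, a homeobox gene that marks node and notochord precursor cells. The embryos were heterozygous Noto-GFP, of mixed 129S3;ICR background and both sexes, at embryonic day 8.5 with a median of 6 somites. Tissue behind the boundary of the first somites was pooled from 23, 39 or 52 embryos (pools 1, 2 and 3), dissociated in 1% trypsin and sorted, so both groups carry the reporter allele and went through the same enzyme. About 2600, 4300 and 6600 GFP-positive cells were collected, and every pool was hybridized as a pair of arrays, 1 of each sort, hence 3 arrays a group. GFP-negative cells are all remaining cell types of that tissue together. In such bulk samples fewer cells of a type and less RNA per cell cannot be told apart.

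Both arrays of pool 1 stood apart in RNA quality. The 3′ over 5′ signal ratio of the Gapdh control was 14.0 and 15.4 in pool 1 and 1.60 to 2.22 on the other 4 arrays, so values are given for each pool and without pool 1. Of the node and notochord markers, 9 of 11 tested were higher in GFP-positive cells, led by Foxa2, Nodal and Bicc1, and their summed intensity was 8886 to 11278 against 314 to 804 in GFP-negative arrays. Noto itself was not analysed here. Other cell types moved with the groups as well. Lateral mesoderm markers were lower for 7 of 11 (Tbx20, Prrx1 and Gata6 first; sums 449 to 763 against 2724 to 6104), and endothelial and blood markers for 6 of 12 (Sox7, Kdr and Etv2 first; 1320 to 6904 against 14023 to 30952). Presomitic and somitic markers were higher for 7 of 12 (Pcdh8, Ripply2 and Foxc1 first; 6238 to 7345 against 2245 to 2775). In gut endoderm 4 of 12 were higher (Apela, Trh, Epcam and Spink1) and Hhex was lower. Of 11 neural plate markers only Nkx1-2 was called, lower (sums 3423 to 3649 against 3529 to 4623). Of 8 surface ectoderm markers Tfap2a, Dlx5, Trp63 and Gata3 were lower, and 3 had positive values that were not called. The surface ectoderm sums overlapped, at 505 to 630 in GFP-positive against 384 to 552 in GFP-negative arrays. No marker was at 0, but a low intensity may be background, so the presence of a cell type is not read from it. The part of any of these cell types in the results below was not tested.

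Of the 9 genes, Hapln1 was lower and Comp higher in GFP-positive cells in limma across all genes (adjusted p under 0.05). The other 7 did not pass in this fit, which did not use the pairing of arrays by pool. The background was 1.71% of 12628 genes called lower and 2.95% called higher, so with 9 genes the count of 1 in each direction is a description. Vcan and Lum were lower in each of the 3 pools and passed when the pool was a block in the fit or pool 1 was left out. Those 2 fits called 5.99% and 17.5% of all genes lower. The same sign in all 3 pools was seen in 53.3% of all genes. Has2, Cd44, Acan, Bgn and Dcn passed neither in the first fit nor in those 2. The median log2 fold change of the 9 genes was -0.05, beside 0.01 over all genes tested.

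**Figure D1:**
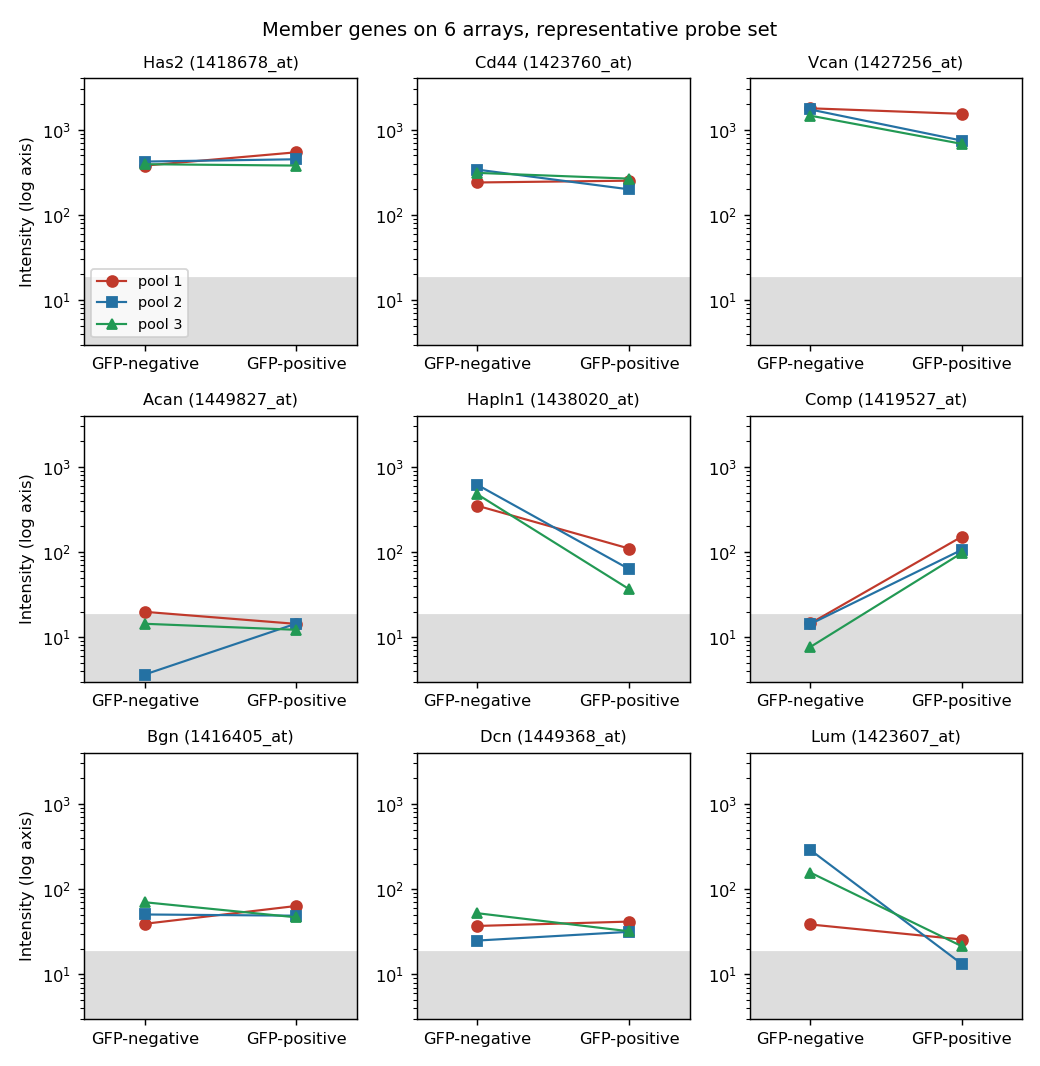
Each panel plots 1 gene's representative probe set: the deposited intensity (log axis) on the GFP-negative and GFP-positive array of each pool, joined by a line, with the grey band below 18.4, the highest 40th percentile among the arrays. All 3 lines fall for Hapln1, Vcan and Lum and rise for Comp, while the Has2, Cd44, Bgn and Dcn lines cross or stay nearly level.

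Has2 makes the hyaluronan chain at the plasma membrane and is the main synthase of the early embryo. Its intensity (probe set 1418678_at) was 544, 450 and 379 in GFP-positive arrays of pools 1 to 3 and 379, 423 and 394 in the GFP-negative ones. These values lay between the 87.6th and 90.6th percentile of their arrays, and the groups overlapped. The log2 fold change, GFP-positive over GFP-negative, was 0.17 ± 0.21 (SE; adjusted p = 0.649 in limma), with a 95% interval from -0.30 to 0.64. Its other probe set, 1449169_at, read 236, 216 and 210 against 206, 230 and 301, and its log2 fold change was -0.12 ± 0.22. The synthase thus lay in the upper part of the intensity range in both sorted populations, and the pools did not share a sign on either probe set.

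Cd44 is the main cell-surface receptor of hyaluronan. Probe set 1423760_at read 252, 200 and 267 in GFP-positive and 240, 340 and 311 in GFP-negative arrays, again with overlap. Its log2 fold change was -0.27 ± 0.22 (adjusted p = 0.479 in limma; 95% interval -0.77 to 0.22). The second kept probe set of the gene, 1434376_at, had the opposite sign, at 0.28 ± 0.24, with 209, 135 and 163 against 130, 162 and 106. The remaining pair of Cd44 probe sets did not pass the filter and read at most 15.5 on any array. Neither kept probe set gave the same sign in all 3 pools.

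Vcan encodes versican, the large lectican of embryonic mesenchyme, which binds hyaluronan through its amino-terminal domain. Probe set 1427256_at read 1537, 745 and 682 in GFP-positive arrays and 1785, 1728 and 1463 in GFP-negative arrays. The low values were those of GFP-positive pools 2 and 3, and the GFP-positive array of pool 1 lay within the GFP-negative range. Within pools the log2 differences were -0.21, -1.18 and -1.07. The fit gave -0.82 ± 0.31 (adjusted p = 0.162 in limma). In the blocked fit the adjusted p was 0.0451, without pool 1 the value was -1.12 ± 0.13 (adjusted p = 0.00049), and without GFP-positive array 1 alone it was -1.18 (adjusted p = 0.0294). Over all genes, 5.99% were called lower with the block, 17.5% without pool 1 and 1.64% without GFP-positive array 1. As a mean over its kept probe sets Vcan had -0.48 (adjusted p = 0.204 in limma).

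A second Vcan probe set, 1421694_a_at, which can bind several transcripts of the gene, separated the groups in full. It read 279, 201 and 151 in GFP-positive and 355, 420 and 398 in GFP-negative arrays, a log2 fold change of -0.83 ± 0.25 (adjusted p = 0.13 over all probe sets in limma, and 0.044 with the block, where 4.93% of all probe sets were called lower). Without pool 1 it was -1.09 (adjusted p = 0.00237), a fit that called 15.2% of all probe sets lower. The other 3 kept Vcan probe sets were dimmer, at 14.1 to 132 on all arrays, and had log2 fold changes from -0.39 to -0.14. The 3 that failed the filter read at most 20.6. All 5 kept probe sets of Vcan had a negative value, and with all 3 pools and no block none passed over all probe sets.

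Hapln1, the link protein that fastens lecticans to hyaluronan, had the most negative log2 fold change of the 9 genes and was lower in GFP-positive cells. Probe set 1438020_at read 110, 63.2 and 36.7 in GFP-positive arrays and 349, 614 and 475 in GFP-negative arrays. The lowest GFP-negative value was that of pool 1, and it lay above every GFP-positive value. Mean intensities were 69.9 ± 37.1 against 479 ± 132 (SD, n = 3). The log2 fold change was -2.36 ± 0.31 (adjusted p = 0.00762 in limma), with -1.43, -2.76 and -2.88 within pools. Without pool 1 it was -2.82 ± 0.20. The call did not hold without GFP-negative array 2 (-2.17, adjusted p = 0.0515), without pool 2 (-2.15, adjusted p = 0.212) or without pool 3 (-2.09, adjusted p = 0.0783). The limma fit without pool 1 has as few arrays as those without pool 2 or 3. There the adjusted p was 6.37e-05, and 17.5% of all genes were called lower.

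The other 3 probe sets of Hapln1 separated the groups as well, at lower intensities. On 1421633_a_at the GFP-positive arrays read 33.7, 38.4 and 38.5 and the GFP-negative ones 147, 152 and 116. On 1426294_at the values were 19.7, 29.2 and 11.3 against 139, 126 and 85.4, and on 1426295_at they were 23.0, 17.1 and 19.8 against 72.7, 145 and 88.9. Log2 fold changes were -1.30 ± 0.19, -1.51 ± 0.22 and -1.33 ± 0.23 (adjusted p = 0.017, 0.0182 and 0.0297 over all probe sets in limma). Over all kept probe sets, 0.55% were called lower and 1.26% higher. The pool 1 differences on these 3 probe sets were -1.45, -1.73 and -0.93, the most negative of the pools on the first 2 and the least negative on the third.

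Hapln1 and Vcan lie next to each other on mouse chromosome 13, with 0 protein-coding genes between them in the RefSeq table. The 250 bases before the start of each are shown because these neighbours had negative values in every pool on their representative probe sets. They come from a set of promoter windows on build GRCm38.p6. The set used here held 5 of the 9 genes (Hapln1, Vcan, Acan, Cd44 and Bgn), a limit of the set and not of the genome annotation. Hapln1 is at chr13:89540386-89540635 on the plus strand and Vcan at chr13:89742513-89742762 on the minus strand, each written 5′ to 3′ along its gene, with motif matches in capitals.
Hapln1: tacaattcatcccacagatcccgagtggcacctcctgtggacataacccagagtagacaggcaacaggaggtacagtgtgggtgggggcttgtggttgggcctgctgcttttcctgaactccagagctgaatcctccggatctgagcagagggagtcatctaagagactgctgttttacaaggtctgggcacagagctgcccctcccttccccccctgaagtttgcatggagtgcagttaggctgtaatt
Vcan: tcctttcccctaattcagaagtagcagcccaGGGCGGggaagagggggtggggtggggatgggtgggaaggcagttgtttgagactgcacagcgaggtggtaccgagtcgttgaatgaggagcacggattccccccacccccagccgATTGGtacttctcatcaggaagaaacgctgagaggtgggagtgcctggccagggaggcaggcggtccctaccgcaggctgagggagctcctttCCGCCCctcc

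5 motifs were searched on both strands: the TATA box TATAAA, the CCAAT box CCAAT, the GC box GGGCGG, the forkhead motif TGTTTAC and the SOX motif AACAAT. No match lay in the Hapln1 window. The Vcan window held the CCAAT box on its reverse strand, as ATTGG, starting 103 bases before the start, and GC boxes starting 219 and 10 bases before it. Of 32851 promoter windows in the table, 33.8% held a CCAAT box, 32.7% a GC box, 12.4% a TATA box, 9.42% the SOX motif and 3.17% the forkhead motif. The Hapln1 window was 54.4% G and C with 2 CpG dinucleotides, and the Vcan window 62.4% with 10, beside medians of 52.4% and 6 over all windows. No match says only that these letters are not in the window.

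Acan encodes aggrecan, the lectican of cartilage and of the mature disc. Its only probe set, 1449827_at, read 14.3, 14.5 and 12.2 in GFP-positive and 19.9, 3.65 and 14.4 in GFP-negative arrays. All 6 values lay between the 17.2th and 46.7th percentile of their arrays, so the gene was dim in both groups. The log2 fold change was 0.05 ± 0.17 (adjusted p = 0.882 in limma) and had no common sign in the pools. Acan is the neighbour of Hapln3, another link protein gene. Hapln3, singled out after its values were seen, read 94.6, 98.7 and 117 against 43.4, 75.6 and 27.5, without overlap, and its log2 fold change was 0.78 ± 0.24 (adjusted p = 0.104 in limma).

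Comp, a pentameric glycoprotein of the thrombospondin family that links collagens and proteoglycans in cartilage and tendon, was higher in GFP-positive cells. Its only probe set, 1419527_at, read 152, 106 and 97.6 in GFP-positive arrays and 14.5, 14.3 and 7.68 in GFP-negative arrays. The lowest GFP-positive value lay well above the highest GFP-negative value. Means were 119 ± 29 against 12.2 ± 3.9 (SD, n = 3). The log2 fold change was 1.76 ± 0.19 (adjusted p = 0.00325 in limma), with 1.98, 1.58 and 1.71 within pools. All 3 GFP-negative arrays had the probe set below the 40th percentile, so Comp entered the fit only through the GFP-positive arrays, and its GFP-negative level may be background. Without pool 1 it was 1.64 ± 0.17. Without pool 2 it was 1.84, with an adjusted p of 0.119.

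**Figure D2:**
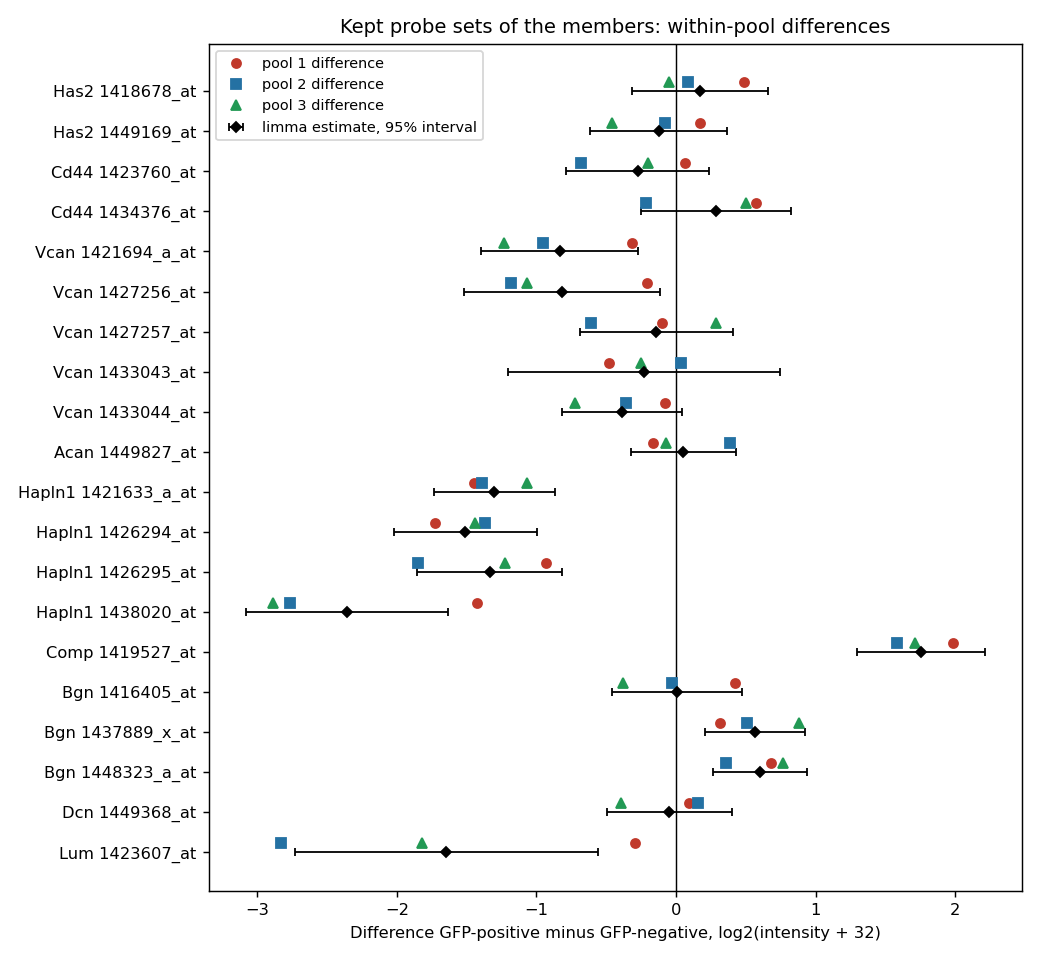
For each of the 20 kept probe sets, coloured symbols give the difference between the GFP-positive and GFP-negative array of each pool and the black diamond the limma estimate with its 95% interval, on the log2(intensity + 32) scale. The 4 Hapln1 probe sets lie between -2.88 and -0.93 in every pool and Comp between 1.58 and 1.98, while pool 1 is nearest to 0 for Lum and for the brightest Vcan probe set.

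Biglycan, decorin and lumican are small proteoglycans whose leucine-rich cores bind collagen fibrils. Lum read 25.6, 13.2 and 21.4 in GFP-positive arrays and 38.5, 289 and 157 in GFP-negative arrays (probe set 1423607_at, the only one of the gene). GFP-negative pools 2 and 3 were the high arrays. The GFP-negative array of pool 1 was close to the GFP-positive values but above each. Within pools the log2 differences were -0.29, -2.83 and -1.82. The log2 fold change was -1.65 ± 0.47 (adjusted p = 0.0901 in limma). It passed in the blocked fit (adjusted p = 0.0378), without GFP-negative array 1 (-2.25, adjusted p = 0.00142) and without pool 1 (-2.32 ± 0.25, adjusted p = 0.000339). Over all genes, 5.99% were called lower with the block, 1380 of 12628 without GFP-negative array 1 and 17.5% without pool 1. Without pool 2 the Lum value was -1.06 (adjusted p = 0.618), and without GFP-negative array 2 it was -1.15 (adjusted p = 0.237). Among GFP-negative arrays, the summed lateral mesoderm markers were also lowest in pool 1, at 2724 beside 5948 and 6104 in pools 2 and 3. The node and notochord, endothelial and blood, gut endoderm and surface ectoderm sums were lowest there too. The presomitic and somitic sum and the neural plate sum were not. The part of any of these cells in the Lum values was not tested.

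Dcn is the neighbour of Lum on chromosome 10. Its kept probe set 1449368_at read 41.6, 31.6 and 32.1 against 37.0, 24.9 and 52.2, with a log2 fold change of -0.05 ± 0.19 (adjusted p = 0.903 in limma; 95% interval -0.48 to 0.38). The other Dcn probe set failed the filter and read at most 14.3. Kera and Epyc, the next genes of this cluster, had no probe set that passed.

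Bgn gave different answers on its 3 kept probe sets. The brightest, 1416405_at, read 63.5, 48.8 and 46.7 against 39.2, 50.5 and 70.2, a log2 fold change of 0.01 ± 0.19 (adjusted p = 0.99 in limma) with overlapping groups. On 1448323_a_at the values were 25.8, 25.7 and 31.96 against 4.11, 13.0 and 5.71, and on 1437889_x_at, a type that may bind related sequences, 19.1, 19.5 and 35.3 against 9.09, 4.28 and 4.61. Those 2 probe sets separated the groups, at 0.60 ± 0.15 and 0.57 ± 0.16, but neither passed over all probe sets (adjusted p = 0.0852 and 0.116 in limma; 0.0509 and 0.0671 with the block). Both entered the fit only through the GFP-positive arrays. Without pool 1 they passed (adjusted p = 0.0435 and 0.0251), a fit in which 13.6% of all probe sets were called higher.

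Over the 20 kept probe sets of the 9 genes, GFP-positive arrays lay all below GFP-negative arrays for 7 and all above for 3. Over all kept probe sets these shares were 12.8% and 11.9%. The 7 were the 4 of Hapln1, 2 of Vcan and that of Lum. The 3 were Comp and 2 of Bgn, which passed the filter only through their GFP-positive arrays, so the filter bears on that count and nothing is read from it. Probe sets of a gene share their target and are not replicates.

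**Figure D3:**
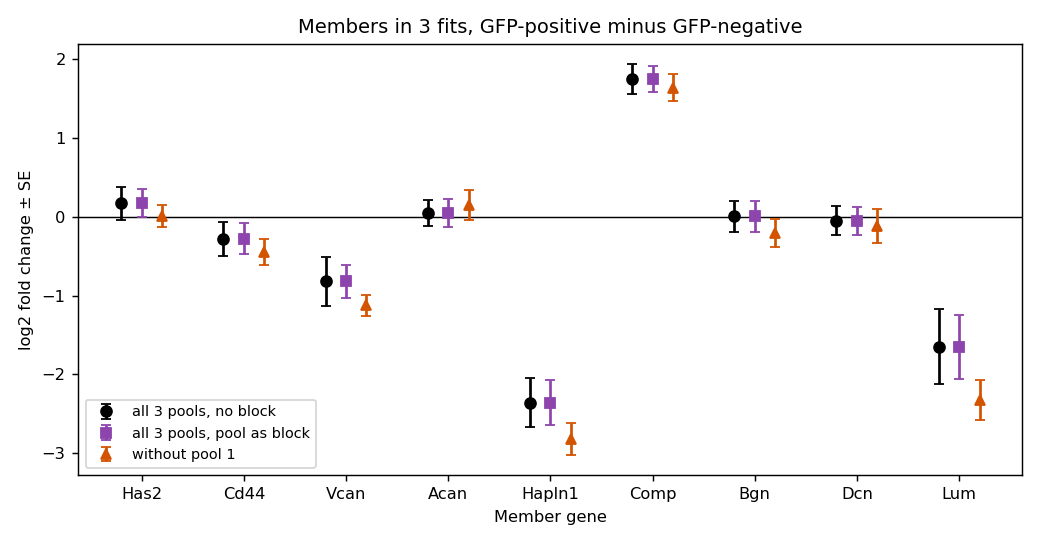
The log2 fold change (GFP-positive minus GFP-negative, ± SE) of each gene is plotted for the fit of all 3 pools, the same fit with the pool as a block, and the fit without pool 1. Vcan, Hapln1 and Lum lie lower without pool 1, at -1.12, -2.82 and -2.32, and the other 6 values move by 0.21 or less.

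Around the 9 genes, 64 further genes of hyaluronan and chondroitin sulfate biology were tested. Of these 0 were higher, 2 lower (Hmmr and Adamts9) and 62 not called, with a median log2 fold change of 0.04. Before adjustment, limma gave p under 0.05 to 9 genes in each direction, beside 12.7% of all genes higher and 10% lower, a background that also stands beside the unadjusted counts of the lists that follow. In the blocked fit 5 were higher and 4 lower, and without pool 1 the numbers were 13 and 15. Over all genes the block gave 7.76% higher and 5.99% lower, and the fit without pool 1 gave 19.9% and 17.5%.

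Precursor supply and breakdown showed no called gene. Of 9 tested genes for hyaluronan synthesis and its sugar precursors, 0 passed in limma (unadjusted, p lay under 0.05 for 2 higher and 1 lower). Ugdh, which makes UDP-glucuronic acid, read 808, 1078 and 1074 against 1302, 2137 and 2021, a log2 fold change of -0.84 ± 0.24 (adjusted p = 0.0913 in limma; 0.0156 with the block). Gfpt1, the entry enzyme of the hexosamine pathway, read 1960, 995 and 1068 against 1051, 490 and 422, at 1.04 ± 0.38 (adjusted p = 0.156 in limma; 0.00927 with the block), and 1 of its 2 other probe sets had the opposite sign. The hexosamine pathway genes did not share a sign: Gfpt2, the other isoform of the entry enzyme, had -0.70 and Uap1, a later enzyme, -0.71, both singled out after their values were seen and not called. Of 5 breakdown genes tested, 0 passed in limma (1 higher and 0 lower unadjusted), with Hexa at 0.66 and Hyal2 at 0.52. All 5 had positive values, as had 6458 of 12628 genes tested. Gusb was near 0, at 0.04, and was -0.21 without pool 1. Cemip was dim, with means of 13.8 against 9.20.

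Among 5 hyaluronan receptors tested, Hmmr alone passed. Hmmr, a hyaluronan-binding protein that also sits on the mitotic spindle, read 201, 163 and 169 in GFP-positive and 375, 360 and 458 in GFP-negative arrays. The groups did not overlap, and the log2 fold change was -1.03 ± 0.20 (adjusted p = 0.0285 in limma). The call did not hold without array 2 or 3 of either group or without pool 2 or 3 (-1.10 to -0.91, adjusted p = 0.105 to 0.506). Its 4 other probe sets were negative too, from -0.92 to -0.19. The values of all 5 receptors were negative, as were those of 6170 of 12628 genes tested. Stab1 and Stab2 were dim, with group means of 6.21 to 23.9, as was Lyve1 in GFP-positive arrays, with a mean of 6.54. Lyve1 in pool 1 and Stab2 in pool 2 had positive differences, and the second kept probe set of Cd44 had 0.28.

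Of 6 link proteins and other hyaluronan binders tested, Hapln1 alone passed. Of 9 lecticans and other chondroitin sulfate proteoglycans, 0 passed in limma (0 higher and 2 lower unadjusted), and the largest change after that of Vcan was that of Cspg5, at -0.47 ± 0.19. Of 6 small leucine-rich proteoglycans tested of 14 listed, 0 passed in limma (0 higher and 1 lower unadjusted), with Nyx at -0.51 ± 0.24 after Lum. The other 8 had no probe set above the filter. Comp was the single call among 6 thrombospondins, matrilins and cartilage adaptors, 5 of which did not pass (2 higher and 0 lower unadjusted). Thbs3, singled out after its values were seen, had 1.11 ± 0.35 (adjusted p = 0.109 in limma), with 0.04, 1.12 and 2.18 within pools. Of the 6, 3 had positive and 3 negative values.

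Of 22 chondroitin and dermatan sulfate enzymes tested, 0 passed in limma (3 higher and 3 lower unadjusted). Positive values were seen in 16 of them, beside 6458 of 12628 genes tested. Among the 16, Xylt2, Chpf, Csgalnact2 and Dsel lay near 0, at 0.03 to 0.09. The most negative of the 22 was Chst15, which adds a sulfate to chondroitin chains. It read 84.8, 135 and 129 in GFP-positive and 174, 846 and 918 in GFP-negative arrays, with high values in GFP-negative pools 2 and 3. Its log2 fold change was -1.93 ± 0.54 (adjusted p = 0.083 in limma; 0.0119 with the block), and -2.48 without pool 1. Ust, a sulfotransferase of the uronic acid units, had -0.96 ± 0.46. With the block 3 enzymes were higher (Chst7, Chst11 and Papss1) and 1 lower (Chst15).

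The proteases that cleave versican and aggrecan included 1 call among 5 tested (unadjusted, p lay under 0.05 in limma for 1 higher and 2 lower). Adamts9 read 136, 123 and 139 in GFP-positive and 367, 851 and 650 in GFP-negative arrays, without overlap. Its log2 fold change was -1.92 ± 0.30 (adjusted p = 0.0131 in limma), and its 2 other probe sets had -1.55 and -0.07. Without array 2 or 3 of either group or without pool 2 or 3 it was -1.95 to -1.62, and the adjusted p of 0.0531 to 0.296 no longer passed. Adamts20, singled out after its values were seen, went the other way, with 1384, 701 and 751 against 460, 337 and 239. Its log2 fold change was 1.35 ± 0.32 (adjusted p = 0.0542 in limma; 0.00516 with the block). The groups did not overlap for either protease. Of the other proteases tested, Adamts1 had -1.01 and Adamts4 -0.88, with pool 1 differences of 0.01 and 0.11. Adamts15 had 0.27, and none of these was called.

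**Figure D4:**
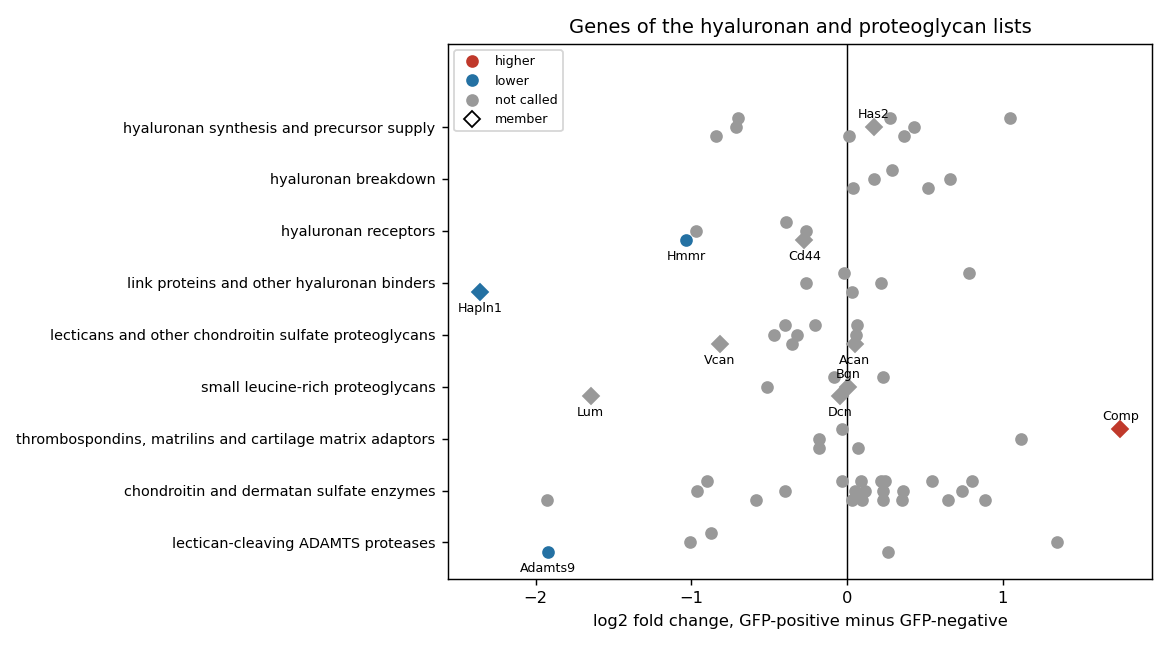
Each symbol is a tested gene of a list, placed at its log2 fold change (GFP-positive minus GFP-negative); diamonds are the 9 genes described, and red or blue marks a gene called higher or lower at an adjusted p under 0.05. Comp is the only gene called higher, at 1.76, and Hapln1, Adamts9 and Hmmr are called lower, at -2.36, -1.92 and -1.03.

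The genes whose pattern over the 6 arrays was most like Hapln1 on the log2 scale were Pikfyve, Ubp1 and Tmem204, with Pearson correlations of 0.996, 0.994 and 0.994. For Comp they were Armc3, Il18 and Lrig1, at 0.998, 0.998 and 0.997. These are descriptions over 6 arrays in 2 groups, and 192 genes had a correlation over 0.95 with Hapln1 and 294 with Comp. Among them, Lrig1 read 1121, 662 and 710 against 152, 124 and 95.6, and Armc3 60.3, 48.5 and 40.8 against 3.18, 2.48 and 0.52. Pool 1 was the highest of the GFP-positive arrays for both, as for Comp. Both were picked by their correlation with Comp, so nothing is read from the shared order. Armc3, like Comp, entered the fit only through the GFP-positive arrays.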

How the data were processed

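The authors deposited linear 1-colour Affymetrix intensity values made with GCOS 1.4, per the submitters' processing notes. Each array's mean without the top and bottom 2% of probe sets came to 150, and no detection calls were used, so a low intensity may be background. Of 45101 probe sets, 64 were controls, 34945 had 1 symbol, 932 several and 9160 none. 0 sample columns were left unused.

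Intensities were taken to log2(value + 32), which understates changes of dim genes. Probe sets at or above the array's 40th percentile on at least 3 arrays were kept (27821), the brightest kept probe set stood for each of 12628 genes, and limma 3.58.1 in R 4.3.3 (lmFit and trended eBayes) fitted group alone, with Benjamini-Hochberg adjustment and a threshold of 0.05. Other probe sets carry p-values adjusted over all kept probe sets. Errors are standard errors of log2 fold changes or SDs of intensities. The fit was tested on simulated data. Sequences were searched in Python 3.11.15.

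Same-numbered arrays come from the same pool per the labels, which pairs them. The main fit left this pairing out, and the fit with the pool as a block used it. Deviations of paired arrays from their group means correlated at 0.542, 0.286 and 0.436. Across pools 2 and 3 the correlations were 0.380 and 0.279, and those between pool 1 and the other pools were negative, so the arrays split mainly into pool 1 and the rest. Alternatives were the offset, quantile normalization, the filter, the variance trend, the pool as a replicate block, the mean over probe sets, and each array or pool left out. The text gives every probe set of the 9 genes, the dim ones by count and range, and for each list the 3 called genes with the smallest p, all called genes where 5 or fewer, or the 2 largest changes where none was called. For the 2 called genes of the 9, it also names the 3 most correlated genes. The 9 genes and the lists were chosen with earlier results of these data known.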

Additional observations from a re-analysis of the deposited data

How the results depend on the processing

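The calls rest on 3 arrays a group. Comp stayed called and Hapln1 stayed called under both other offsets, quantile normalization, no filter, the stricter filter, no variance trend, the pool block and the mean over probe sets. The pool as a replicate block raised the genes called to 980 higher and 757 lower, and those of the 9 called lower to 3 (Hapln1, Vcan and Lum), and it changed no other call among the 9. No filter on low values gave 233 genes higher and 101 lower. Leaving out an array or a pool gave 5 to 2511 genes higher and 0 to 2213 lower, and of the 9 genes 0 to 1 higher and 0 to 3 lower. Both counts over all genes rose by over 1.5 times without GFP-negative array 1 (1393 and 1380) or pool 1, and fell by over 1.5 times without array 2 or 3 of either group or pool 2 or 3. They stayed within it without GFP-positive array 1. Without pool 2, where 0 genes were called lower in limma, 409 were lower at an unadjusted p under 0.05. Values near 0 changed sign without being called: Dcn was 0.0301 after quantile normalization and Cd44 0.00487 as a mean over probe sets. With arrays or pools left out, Bgn lay between -0.20 and 0.20, Acan between -0.12 and 0.17, and Dcn between -0.19 and 0.13. The cause of these changes was not tested.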
